A study of Mus musculus with 10 samples.

Results

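Gene expression was compared between cultured, activated B cells of the mouse spleen (4 RNA libraries) and uncultured cells labelled femoral B cells (6 RNA libraries), which are all 10 libraries of the series. Each library was placed in its compartment by the index number that closes its description, and all genes except those of the X and Y chromosomes were read. The spleen cells carry the strain label 129 and "wt" in their names. Splenocytes lacking the surface protein CD43, which resting B cells do not display, were kept in culture for 48 h with bacterial lipopolysaccharide (LPS, 5 µg/ml) and interleukin 4 (IL4, 20 ng/ml). The group LPS_IL4 got no inhibitor, and the group LPS_IL4_SAHA got SAHA (vorinostat, an inhibitor of histone deacetylases) at 200 nM by the sample names, with 2 libraries in each. Each spleen group holds one library named 4_et_7 and one named 6_et_8, so the 4 spleen libraries come from 2 numbered pools of cells. The femoral cells have the strain label C57BL6, were lysed without culture and fall into 3 genotype groups of 2 libraries. RAG2_deficient mice lack the recombinase subunit Rag2 by their label. The label deltaEmu names the immunoglobulin heavy chain (IgH) enhancer Eµ, and 2KO is not spelled out in the labels, although the design text names mice deficient for 5'Eµ and 3'RR, 2 regulatory regions of the IgH locus. All mice were 8 to 10 weeks old. How the femoral cells were collected, by a surface protein or otherwise, is not stated in the labels.

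B cells arise in the bone marrow, where progenitors cut and rejoin the V, D and J segments of their immunoglobulin genes with the Rag1 and Rag2 recombinase, display a surrogate light chain as a test receptor and divide in response to interleukin 7. Cells that pass leave for the spleen as resting B cells that carry IgM and IgD. LPS acts through Toll-like receptor 4 and NF-kB, and IL4 through STAT6. Together they drive resting B cells to grow, divide, present antigen and begin to switch the class of their antibody.

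Tissue, strain, culture, stimulation and genotype all changed together between the compartments, and no wild-type femoral group and no unstimulated spleen group was analysed here. Their contributions cannot be told apart. The count table names its columns by number only. The sample titles open with another numbering, which would assign 8 of the 10 columns to other samples. If the title numbering were the right one, the comparison would not hold. The labels also conflict within the spleen: titles and descriptions put SAHA on opposite samples, its dose is 200 nM in names but in ng/ml in the protocol, and the growth protocol names KOKI and BLACK-6 mice where the strain label is 129. The design text leaves out IL4, and its number of animals per spleen pool differs from what the names give. These conflicts do not move a library between compartments. Under the index numbering, Rag1 lay between 0 and 0.0427 CPM (counts as a share of the adjusted library size, on the usual per-million scale) in the 4 spleen libraries and at 145 CPM or more in the 6 femoral libraries. The targeted gene Rag2 read 0 CPM in every spleen library and 13.7 to 24.7 CPM in the femoral libraries, with the RAG2_deficient libraries at 22.5 and 24.7 CPM. Which part of the gene the allele removes is not stated, so these values check nothing about the genotype label. Total counts ran from 20198437 to 25544275 in the spleen and from 17710154 to 20825349 in the femoral libraries. One library, LPS_IL4 6_et_8, stood apart from the other spleen libraries: entries that overlap ribosomal RNA took 5.05% of its counts, where the others had 1.50% to 2.01%.

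The compartments differed across most of the transcriptome. Of 15729 genes tested, 10689 (68.0%) passed edgeR's quasi-likelihood test at a Benjamini-Hochberg adjusted p of 0.05, and such genes are said here to have been called. In the spleen 4603 genes (29.3%) were called higher and 6086 (38.7%) called lower. Changes of at least 4-fold were uneven: 715 genes (4.55%) were called and at least 4-fold higher in the spleen, and 3299 (21.0%) were called and at least 4-fold lower. The 4 spleen values lay above all 6 femoral values for 3763 genes (23.9%) and below all of them for 5061 (32.2%). In a fit of all 10 libraries with 5 group means, 7913 genes (50.3%) were called in 1 and the same direction against each of the 3 femoral groups, of which 3192 were higher and 4721 lower in the spleen. The median log2 fold change of all tested genes, spleen minus femoral, was -0.18. The first component of the 500 most variable genes held 93.2% of their variance and separated the compartments. Described by Pearson's r over the tested genes, pairs of libraries had r of 0.971 to 0.994 within the spleen, 0.915 to 0.989 within the femoral libraries and 0.686 to 0.770 between them. These shares are the background for every list below: a list whose called share lies near 29.3% higher or 38.7% lower moved like the average gene.

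**Figure D1:**
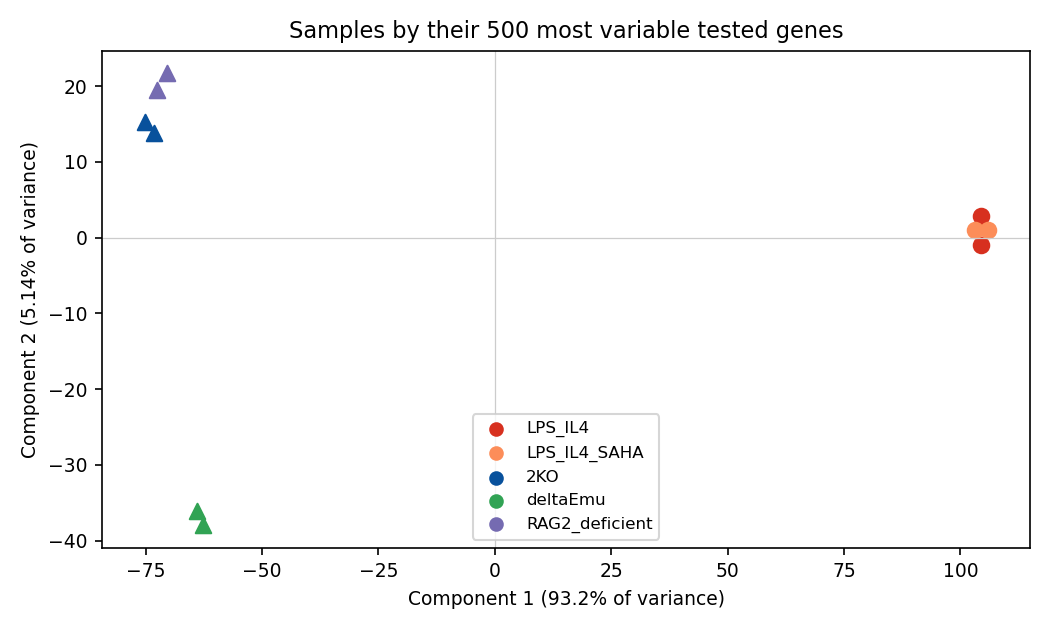
Principal components of the 10 libraries over the 500 most variable tested genes (log2 CPM), with component 1 on the x axis (93.2% of variance) and component 2 on the y axis (5.14%); circles are spleen and triangles femoral libraries. The 4 spleen libraries lie together on the right, while deltaEmu lies apart from 2KO and RAG2_deficient on component 2.

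The labelled cell type was checked against marker genes before any other result. All 15 members of the pan-B list were tested. Their summed level ran from 3663 to 3908 CPM in the spleen and from 561 to 1580 CPM in the femoral libraries. The femoral libraries also held the defining RNAs of other marrow cells in large amounts. The 15 neutrophil markers summed to 7777 to 22934 CPM there and to 0.538 to 0.772 CPM in the spleen. All 15 were called lower in the spleen, beside 38.7% of all genes. Mpo, which encodes the myeloperoxidase of neutrophil granules, read 0.0551, 0, 0.0427 and 0 CPM in the spleen libraries against a lowest femoral value of 994 CPM, a median of 1818 and a highest of 3169. Its spleen total was 2 counts, a ratio of spleen to femoral of 1.21e-05 (95% counting interval 1.46e-06 to 4.35e-05). The compartments did not overlap. Elane and Retnlg, 2 other neutrophil genes, had no spleen count at all and were at least 2084-fold and at least 2608-fold lower there (floor of 3 counts per library).

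The same held for other lineages. Of 13 tested erythroid genes, 12 were called lower in the spleen, and Hba-a1, an alpha globin, had 0.389 ± 0.300 CPM (SD, n = 4) there against 1807 ± 1322 CPM (n = 6). The exception was Tfrc, the transferrin receptor of all dividing cells, with 689.7 ± 87.2 and 444 ± 231 CPM (edgeR adjusted p = 0.0891). Without the 2KO library numbered 3, 1 erythroid gene was called higher in the spleen. All 14 monocyte and macrophage genes, all 12 genes of eosinophils, basophils and mast cells, all 10 megakaryocyte genes and all 9 natural killer cell genes were called lower in the spleen, beside 38.7% of all genes. Stromal and bone genes followed with 14 of 16: the collagen gene Col1a2 had 1 count in all spleen libraries and 506 to 3876 CPM in the femoral ones, a ratio of 7.77e-06 (95% counting interval 1.97e-07 to 4.33e-05). T cell genes were scarce on both sides, with summed levels of 16.8 to 24.3 CPM in the spleen and 37.7 to 51.4 CPM in the femoral libraries, and 11 of 13 were called lower in the spleen and 1, the kinase Lck, higher (log2 0.45 ± 0.14, edgeR adjusted p = 0.0150, with overlapping values). The median log2 fold change was -14.68 for the neutrophil list (-12.83 with genes without spleen counts set to their bound), -11.27 (-8.96) for the erythroid list and -11.04 (-8.42) for the stromal list.

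Every CPM value is a share of all RNA in a library, so these RNAs enter every femoral level. In bulk RNA, fewer cells of a type and less RNA per cell cannot be told apart. The part of other marrow cells in each result below was not tested.

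**Figure D2:**
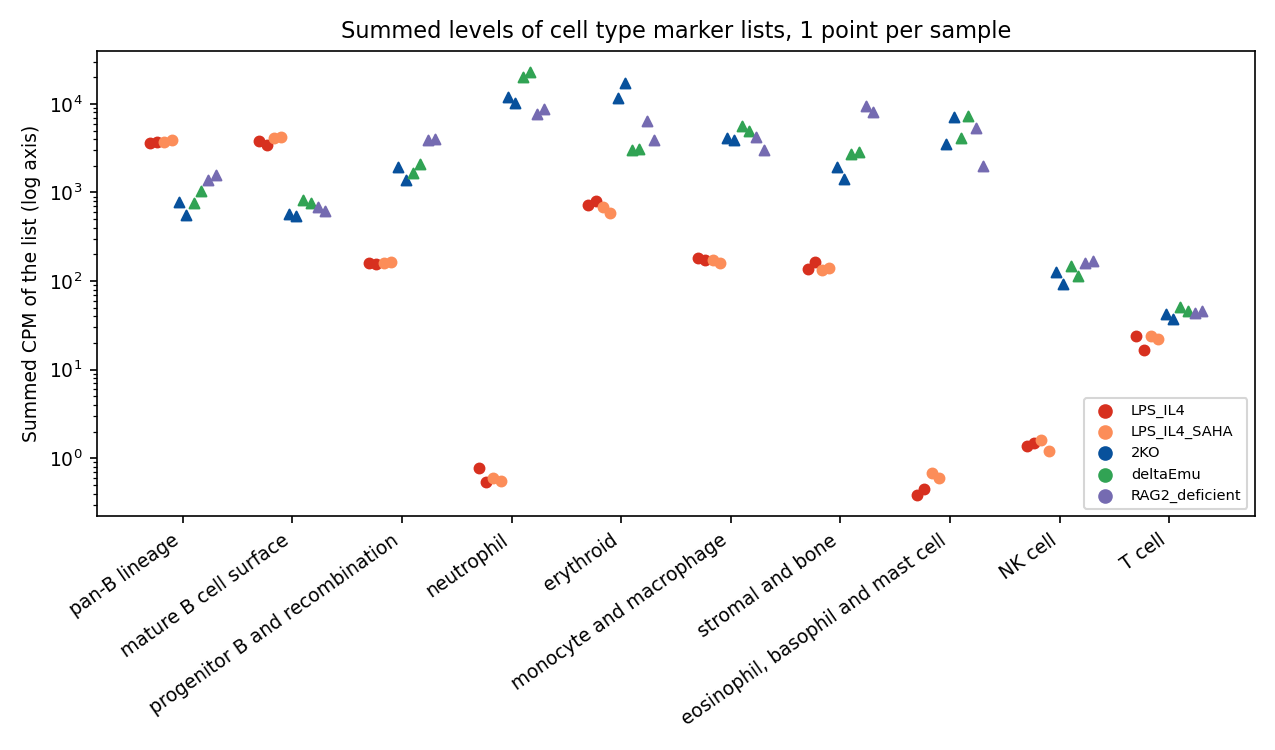
Summed CPM (log y axis) of 10 cell type lists on the x axis, 1 point per library, circles for spleen and triangles for femoral. Neutrophil markers sit at or below 0.772 CPM in the spleen and at or above 7777 CPM in the femoral libraries, while the pan-B sum of the spleen (3663 to 3908 CPM) lies above every femoral value.

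Beside Lck, 2 genes in these other lists were called higher in the spleen. Alpl, the tissue-nonspecific alkaline phosphatase counted here as a bone gene, was higher in the spleen (62.4 to 90.8 against 6.68 to 35.4 CPM, log2 fold change 2.05 ± 0.45 SE, edgeR adjusted p = 0.00157). Ly6d, a surface protein of early B lineage and plasmacytoid dendritic cells, was higher too (499.7 ± 198 against 62.3 ± 24.2 CPM, log2 3.00 ± 0.35, adjusted p = 1.62e-05). Alpl and Ly6d separated the compartments in every library. Siglech, the defining receptor of plasmacytoid dendritic cells, was at 0.0414 to 0.110 CPM in the spleen and 91.1 to 129 CPM in the femoral libraries. Of 9 genes on this dendritic cell list, 6 were called lower in the spleen and 1, Ly6d, higher (38.7% and 29.3% of all genes). The list summed to 576 to 893 CPM in the spleen, where Ly6d averaged 499.7 CPM. Its femoral sums were 551 to 728 CPM.

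The 12 genes with the largest rise in the spleen held surface receptors of mature B cells, a chemokine, a survival gene and enzymes. Zbtb32, a transcriptional repressor, had 182, 151, 163 and 168 CPM in the spleen libraries and at most 1.00 CPM in any femoral one (log2 8.09 ± 0.34, edgeR adjusted p = 6.88e-09). Fcer2a (CD23, the low-affinity IgE receptor) had 211, 207, 267 and 311 CPM in the spleen, against femoral values from 0 over a median of 0.142 to 4.19 CPM (log2 8.00 ± 0.94). Ms4a1 (CD20) had 872, 727, 927 and 850.3 CPM in the spleen and 0.275 to 23.7 CPM in the femoral libraries (log2 6.89 ± 1.23). Both had their highest femoral means in deltaEmu, at 2.85 CPM for Fcer2a and 20.4 CPM for Ms4a1. Cr2 (CD21, a complement receptor), Cd83, the Fc receptor-like gene Fcrl5, the chemokine Ccl22, the survival gene Bcl2a1d and Dtx1, a regulator of Notch signalling, rose by log2 6.27 to 7.20. The same top 12 held Cth, the enzyme that makes cysteine from cystathionine (27.8 ± 7.29 against 0.223 ± 0.179 CPM), Mfsd2a, a transporter of lysophospholipids (26.2 ± 1.52 against 0.324 ± 0.170 CPM), and Shisa8 (59.1 ± 14.7 against 0.381 ± 0.152 CPM).

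By level rather than by fold, the 10 largest gains held 2 entries that overlap ribosomal RNA (Gm26917, the largest of all, and Gm42418), Ighm and 7 genes of translation, protein folding and the nucleolus. Eef1a1, which delivers transfer RNA to the ribosome, rose from 6835 ± 1137 to 12432 ± 2526 CPM. Eef2, Rpsa and Rplp0, which also serve the ribosome, the chaperones Hspa8 and Hsp90ab1 and the nucleolar protein Npm1 were those others, with log2 fold changes of 1.28 to 2.10. Rpsa and Eef1a1 have many processed copies in the genome, and their counts are uncertain where reads could be split among these. The largest losses by level were S100a9, S100a8, Lyz2, Hbb-bs, Prg2, Mpo, Hba-a1 and Col1a2, all genes of other marrow cells, with Malat1 (4316 ± 1245 against 8459.8 ± 1208 CPM) and Ahnak (42.9 ± 19.1 against 2188 ± 517 CPM). Gm42418 rose from 1641 ± 877 to 5017 ± 682 CPM. Gm26917 was called higher in the spleen at adjusted p = 0.0411. LPS_IL4 6_et_8 had 44861 CPM of it against 8808 to 11972 CPM in the other spleen libraries, and without that library the adjusted p is 0.202. The call also ended without deltaEmu 7 (0.0589) or either RAG2_deficient library (0.0741 and 0.0540).

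Most genes of B cell progenitors were at low levels in the spleen. Of 16 genes of the progenitor and recombination list, 15 were called lower in the spleen, each at least 4-fold, beside 38.7% and 21.0% of all genes. The median log2 fold change was -7.75 (-7.13 with genes without spleen counts at their bound). Rag1, the catalytic subunit of the recombinase (chr2:101638282-101649501 on mm10), had a femoral low of 145, a median of 245 and a high of 953 CPM and 1 count in all spleen libraries, a ratio of 2.56e-05 (95% counting interval 6.47e-07 to 1.42e-04). Both RAG2_deficient libraries were above the other 4, with a mean of 857 CPM beside 206 in 2KO and 191 in deltaEmu. Rag2 was at least 140-fold lower in the spleen. Dntt, the enzyme that adds untemplated bases at V(D)J joints, had 0, 0, 0.0855 and 0.184 CPM in the spleen and 152 to 578 CPM in the femoral libraries (log2 -12.10 ± 0.78, edgeR adjusted p = 1.47e-07). The surrogate light chain genes Igll1 and Vpreb1 had at most 0.0414 and 0.415 CPM in the spleen against 82.0 to 425 and 62.7 to 436 CPM. No library of one compartment overlapped the other for any of these genes.

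Receptors and regulators of the progenitor stage fell to different depths. Il7r, the interleukin 7 receptor, had 0.496, 0.455, 0.897 and 0.138 CPM in the spleen against 37.3, 54.4 and 115 CPM for the femoral low, median and high (log2 -6.94 ± 0.50). Kit, the stem cell factor receptor, fell by 7.14 on the log2 scale, the transcription factor Sox4 by 5.47 and the transcription factor Myb by 3.66, with 27.0 ± 3.39 CPM of Myb left in the spleen. Flt3, the receptor of early lymphoid progenitors, was the member that was not called, with 74.2, 75.5, 63.1 and 78.7 CPM in the spleen inside the femoral range of 73.8 to 115 CPM apart from 1 library (edgeR adjusted p = 0.0719). Kit, Flt3 and Myb also mark blood progenitors of other lineages. In the haematopoietic progenitor list 11 of 12 genes were called lower in the spleen (38.7% of all genes), including Cd34 with no spleen count (at least 584-fold lower).

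Transcription factors that set up the B lineage did not move together. Of 12 tested, 5 were called higher in the spleen and 1 lower (29.3% and 38.7% of all genes), with a median log2 of 0.45. Ikzf3 (Aiolos), which acts at later B cell stages, rose by log2 2.99 ± 0.28, and Spib by 1.75 ± 0.21. Pax5, which holds cells in the B lineage, had 288, 722, 339.8 and 309 CPM in the spleen libraries against 47.9, 79.2 and 204 CPM (femoral low, median, high), a rise of log2 2.05 ± 0.41 (edgeR adjusted p = 8.88e-04). Ebf1, which acts with Pax5, overlapped between compartments: 81.6, 174, 96.5 and 77.9 CPM in the spleen against 79.9, 121 and 483 CPM (adjusted p = 0.159). Ebf1 was highest in RAG2_deficient (mean 359 CPM), and against this group alone it was called lower in the spleen (log2 -1.69, adjusted p = 0.00740). Tcf4, a relative of Tcf3, was the member called lower (-0.59), a call that ended without LPS_IL4 4_et_7, either LPS_IL4_SAHA library or the second RAG2_deficient library, and Irf8, Tcf3 and Foxo1 were not called.

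Genes of the B cell receptor complex and of mature B cells were higher in the spleen. In the pan-B list 14 of 15 were called higher and none lower (29.3% and 38.7% of all genes), with a median log2 of 1.86. All 14 separated the compartments in every library, as did 23.9% of all genes in this direction. The inhibitory receptor Cd22 had 401, 527, 419 and 475 CPM in the spleen and 8.43 ± 4.61 CPM (SD, n = 6) in the femoral libraries, with no overlap (log2 5.76 ± 0.38, edgeR adjusted p = 1.68e-07). The adaptor Bank1 rose from 16.7 ± 5.12 to 249 ± 37.1 CPM. Cd79a, a signalling chain of the receptor that progenitors also make, rose by log2 1.64 ± 0.37.

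In the mature B cell list 17 of 18 genes were called higher and 1 lower, beside 29.3% and 38.7% of all genes, and 14 rose at least 4-fold, beside 4.55%. The median log2 was 4.63. The receptor for the survival factor BAFF, Tnfrsf13c, had 242, 216, 275 and 277 CPM in the spleen and 3.98 to 10.0 CPM in the femoral libraries (log2 5.15 ± 0.26, edgeR adjusted p = 2.36e-08). Cd40, the receptor for T cell help, had 149.8 ± 23.9 against 4.96 ± 2.06 CPM. The follicle homing receptors Ccr7 and Cxcr5 rose by log2 5.16 ± 0.51 and 4.12 ± 0.55.

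Antigen presentation by class II molecules was raised with its regulator. Of 12 genes 9 were called higher and none lower, beside 29.3% and 38.7% of all genes (median log2 2.18). Ciita, the master regulator of class II genes, had 149.9, 164, 137 and 148 CPM in the spleen and 9.95, 24.1 and 38.6 CPM as femoral low, median and high (log2 2.64 ± 0.35, edgeR adjusted p = 4.04e-05). The class II chains H2-Ab1, H2-Aa and H2-Eb1 and the invariant chain Cd74 rose by log2 2.61 to 3.11. H2-DMb2 and H2-Oa, parts of the 2 complexes that control peptide loading, rose by 4.48 ± 0.49 and 1.76 ± 0.23. Its neighbour H2-DMb1 did not follow, at 46.0 ± 1.06 against 44.1 ± 17.2 CPM (adjusted p = 0.855). These 2 genes are near-identical copies, and how reads were divided between them is not given in the sources used here. Ctss, the protease that trims the invariant chain, and Ifi30 were not called, and macrophages make both.

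NF-kB genes were raised almost without exception, with 19 of 20 called higher (29.3% of all genes), none lower and a median log2 of 1.76. The adaptor Traf1 had 221, 162, 199.6 and 234 CPM in the spleen and 2.56 to 7.96 CPM in the femoral libraries (log2 5.29 ± 0.29, edgeR adjusted p = 4.15e-08). Among the subunits, Relb rose by log2 2.77 ± 0.20, Nfkb2 by 2.28 ± 0.22, Nfkb1 by 1.20 ± 0.15, Rel by 0.96 ± 0.32 and Rela by 0.26 ± 0.10. The values of Rel and Rela overlapped between compartments, and Rel was highest in LPS_IL4 6_et_8, with 273 CPM where the other spleen libraries had 78.6 to 114 CPM. The inhibitors Nfkbie, Nfkbib and Nfkbia rose by 1.25 to 1.74. Tnfaip3 (A20), the enzyme that shuts the pathway down, was the member not called: the 128 to 157 CPM of the spleen lay inside the femoral range of 77.1 to 294 CPM (adjusted p = 0.370), in which deltaEmu averaged 244 and RAG2_deficient 82.9 CPM.

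IL4 response genes were split. Of 15 tested, 7 were called higher and 3 lower, beside 29.3% and 38.7% of all genes (median log2 0.41). Ccl22, a chemokine that attracts T cells, had 27.6, 24.0, 24.9 and 19.0 CPM in the spleen and at most 0.552 CPM in a femoral library (log2 6.78 ± 0.39, edgeR adjusted p = 6.09e-08). Il4i1, an amino acid oxidase induced by IL4, rose from 75.9 ± 10.4 to 325 ± 30.8 CPM, and Il4ra, the receptor itself, by log2 0.80 ± 0.20. The feedback gene Cish fell, with 0.882, 1.82, 1.07 and 0.922 CPM in the spleen against 5.12 to 17.7 CPM (log2 -3.03 ± 0.45), and Socs3 fell by 0.99, while Socs1 rose by 0.97. Without LPS_IL4 6_et_8, either LPS_IL4_SAHA library or the deltaEmu library numbered 5, 1 member in place of 3 was called lower. Stat6 itself was at 135 ± 5.82 and 129 ± 22.2 CPM (adjusted p = 0.669). Ighe, whose germline transcript IL4 induces before a switch to IgE, did not reach the count filter and read at most 0.299 CPM in any spleen library, with 1 femoral library at 1.01 CPM.

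Activation markers gave 11 called higher and 2 lower of 17, beside 29.3% and 38.7% of all genes. Il10, an anti-inflammatory cytokine, had 28.4, 19.6, 19.8 and 19.0 CPM in the spleen and 0 to 0.885 CPM in the femoral libraries (log2 5.72 ± 0.59, edgeR adjusted p = 6.03e-06), and lymphotoxin Lta and the interleukin 2 receptor chain Il2ra rose by 5.70 and 4.88. The costimulatory ligand Cd86 rose by log2 1.49 ± 0.11 and Cd80 by 0.86 ± 0.23. Cd69 and Cd44, classic markers of activated lymphocytes, were called lower in the spleen, but these calls were not stable: without LPS_IL4 4_et_7 or either LPS_IL4_SAHA library no member of the list was called lower, and without LPS_IL4 6_et_8 or either deltaEmu library 1 was. Cd69 had 103, 103, 102 and 85.2 CPM against 105, 130.2 and 359.9 CPM as femoral low, median and high (log2 -1.01 ± 0.39, adjusted p = 0.0380), with the 2 deltaEmu libraries highest. For Cd44 the 306 CPM of LPS_IL4 6_et_8 overlapped the femoral range of 246 to 367 CPM (log2 -0.58 ± 0.19, adjusted p = 0.0153).

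Genes of antibody class switching were partly raised. In this list 11 of 19 were called higher and 2 lower, beside 29.3% and 38.7% of all genes. Ung, which removes uracil from DNA, rose by log2 1.58 ± 0.19, and the mismatch repair genes Pms2, Exo1 and Msh6 by 0.55 to 1.10. Xrcc5 (Ku80) had 78.7, 66.5, 82.6 and 85.0 CPM against 10.6 to 16.1 CPM (log2 2.59 ± 0.13, edgeR adjusted p = 2.31e-08), while its partner Xrcc6 (Ku70) had 111 ± 19.0 and 151 ± 60.5 CPM (adjusted p = 0.161). The end-joining ligase Lig4, which V(D)J recombination also needs, fell by 1.43, and Hmces, which shields abasic sites, by 1.55.

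The plasma cell programme was mixed, with 8 of 17 called higher and 3 lower (29.3% and 38.7% of all genes) and a median log2 of 0.17. Prdm1 (Blimp-1), the repressor that commits cells to antibody secretion, had 25.7, 47.2, 18.1 and 16.7 CPM in the spleen and 2.15 to 3.82 CPM in the femoral libraries (log2 3.20 ± 0.31, edgeR adjusted p = 3.21e-06). Irf4, which precedes it, had 274, 342, 262 and 257 CPM against 28.0 to 73.6 CPM (log2 2.50 ± 0.25). Neither overlapped between compartments. Xbp1, which drives the secretory apparatus in plasma cells, had 105 ± 11.4 and 106 ± 22.5 CPM (adjusted p = 0.910), and Sdc1 (CD138), the surface mark of plasma cells, fell by 1.51. Jchain, which joins IgM and IgA into polymers, was not called (adjusted p = 0.204) and split the femoral groups, with a mean of 505 CPM in deltaEmu and 0.0474 and 0.382 CPM in 2KO and RAG2_deficient, beside 13.4 to 29.8 CPM in the spleen.

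Chaperones of the endoplasmic reticulum (ER) were moderately higher in the spleen, with a median log2 of 0.64. In this list 13 of 20 were called higher and 2 lower (29.3% and 38.7% of all genes), none by 4-fold. Hspa5 (BiP), the main chaperone of the ER, had 1369, 1167, 1294 and 1384 CPM against 433, 685 and 987 CPM as femoral low, median and high (log2 0.89 ± 0.22, edgeR adjusted p = 0.00412). Pdia4, which forms disulphide bonds, rose most (1.39 ± 0.19). Dnajc3 and Dnajb9, 2 cochaperones of the stress response, were called lower (log2 -0.88 ± 0.34 and -0.60 ± 0.22), and for both the femoral mean was highest in deltaEmu. Leaving out any 1 of the 4 spleen libraries or of the 2 deltaEmu libraries left no member of the list called lower. Promoters of this list were read from RefSeq (GRCm38.p6, 250 bases before to 50 after each start). They were searched on both strands for a known element, the ER stress element, CCAAT and CCACG separated by 9 bases. It was found in 7 of 17 windows of the list (41.2%) and in 0.119% of 32851 windows of all genes. Hspa5 holds 1 match, its first base at -65 from the start, and Hsp90b1, another ER chaperone that rose (log2 0.79 ± 0.17), holds 2, with first bases at -212 and -107 and on opposite strands. Their windows lie at chr2:34771840-34772139 on the plus strand and chr10:86705395-86705694 on the minus strand, shown in the direction of transcription with the matches in capitals. Pdia4, which rose most, holds no match, and Dnajc3, which was called lower, holds 1 with its first base at -105. A match describes letters and shows no binding.
Hspa5: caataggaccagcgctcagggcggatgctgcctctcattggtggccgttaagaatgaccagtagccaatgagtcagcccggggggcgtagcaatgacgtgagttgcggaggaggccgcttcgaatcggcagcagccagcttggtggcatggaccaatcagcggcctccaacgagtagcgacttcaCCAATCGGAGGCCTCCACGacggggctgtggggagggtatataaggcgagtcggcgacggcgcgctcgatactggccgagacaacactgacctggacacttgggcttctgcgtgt
Hsp90b1: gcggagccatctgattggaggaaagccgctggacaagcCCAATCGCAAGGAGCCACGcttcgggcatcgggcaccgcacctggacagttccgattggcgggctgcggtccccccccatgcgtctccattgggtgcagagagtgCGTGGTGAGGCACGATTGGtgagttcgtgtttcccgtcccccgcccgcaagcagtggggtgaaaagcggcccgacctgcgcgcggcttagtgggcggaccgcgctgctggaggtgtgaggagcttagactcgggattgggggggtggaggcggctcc

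Replication genes were higher in the spleen by small, even steps. Of 30, 26 were called higher and none lower (29.3% and 38.7% of all genes), none at 4-fold, with a median log2 of 0.65 and a range of 0.05 to 1.45. Mcm6, a subunit of the replicative helicase, had 462, 471, 473 and 514 CPM in the spleen and 234, 303 and 338 CPM as femoral low, median and high (log2 0.71 ± 0.13, edgeR adjusted p = 4.05e-04). Mcm5, of the same helicase, had 599, 441, 557 and 650.1 CPM against 206 to 349 CPM (log2 0.91 ± 0.17). Dut, which keeps uracil out of DNA, rose most (1.45 ± 0.15), followed by Mcm3 (1.19 ± 0.15). The licensing factors Cdt1 and Cdc6 were not called.

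Mitosis genes did not share this evenness: 12 of 24 were called higher and 3 lower (29.3% and 38.7% of all genes), with a median log2 of 0.37. Cdc20, which activates the anaphase-promoting complex, had 153, 122, 144 and 169 CPM in the spleen and 49.5, 78.7 and 92.5 CPM as femoral low, median and high (log2 0.95 ± 0.16, edgeR adjusted p = 3.11e-04). The cyclin Ccnb1 and the kinases Plk1 and Aurkb rose by 0.65 to 0.87. Mki67 (Ki-67), the common marker of dividing cells, went the other way with 484, 1234, 806 and 376 CPM against 1288, 1798 and 2551 CPM (log2 -1.32 ± 0.34, adjusted p = 0.00451), and Cenpf and Anln fell by 1.10 and 1.30. The highest spleen value of Mki67, in LPS_IL4 6_et_8, lay just under the lowest femoral one. It was called against each femoral group in the fit of all libraries with 5 group means (adjusted p = 0.00763 for 2KO, 0.0449 for deltaEmu and 0.0251 for RAG2_deficient). In fits of fewer libraries its call ended when the spleen was compared with deltaEmu alone (0.0624) or RAG2_deficient alone (0.0619), or LPS_IL4 alone with all femoral libraries (0.0518). Dividing myeloid and erythroid precursors express these genes too, and their markers were high in every femoral library.

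The promoters of these 2 lists were searched for known cell cycle elements, and 4 windows that hold a match are shown as examples. Of their genes Mcm6, Mcm5 and Cdc20 were higher in the spleen and Mki67 was lower. The E2F element was searched as TTTCCCGC or TTTGGCGC on both strands, and stood in 9 of 28 windows of the replication list (32.1%), in none of the 20 windows of the mitosis list and in 1.56% of all windows. The cell cycle homology region (CHR), searched as TTTGAA on both strands, stood in 15 of 20 windows of the mitosis list (75.0%) in 14.3% of the replication windows and in 17.9% of all windows. CCAAT stood in 80.0% of the mitosis windows, 57.1% of the replication windows and 37.4% of all windows. With the 50 bases after the start left out, the CHR share of the mitosis list was 30.0% (16.0% of all windows) and the E2F share of the replication list 17.9% (1.30% of all windows). Cdt1 and Cdc6, which were not called, hold E2F matches with first bases at 33 and -138. Dut, which rose most, holds none, and neither does Mcm10, which also rose. These 2 genes had the smallest adjusted p of the replication list. Mcm6 (chr1:128359656-128359955, minus strand) holds E2F matches with first bases at -110 and -47, and Mcm5 (chr8:75109259-75109558, plus strand) holds 1 at -149, in capitals below.
Mcm6: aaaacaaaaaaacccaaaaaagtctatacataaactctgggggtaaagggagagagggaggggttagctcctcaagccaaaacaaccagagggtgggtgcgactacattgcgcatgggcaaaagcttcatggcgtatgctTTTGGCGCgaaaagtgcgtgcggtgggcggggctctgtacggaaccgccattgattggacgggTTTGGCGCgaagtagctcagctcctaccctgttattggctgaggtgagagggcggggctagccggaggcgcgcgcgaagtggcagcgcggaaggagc
Mcm5: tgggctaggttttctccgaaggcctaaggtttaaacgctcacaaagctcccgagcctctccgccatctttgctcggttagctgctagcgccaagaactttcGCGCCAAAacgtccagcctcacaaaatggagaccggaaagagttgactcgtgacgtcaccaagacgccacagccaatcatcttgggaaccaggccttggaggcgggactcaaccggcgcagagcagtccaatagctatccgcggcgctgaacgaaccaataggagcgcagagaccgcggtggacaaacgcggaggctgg
Cdc20, which was higher in the spleen, and Mki67, which was lower, both hold the CHR, with first bases at -18 in Cdc20 (chr4:118437294-118437593, minus strand) and at -116 and -98 in Mki67 (chr7:135716330-135716629, minus strand). Cenpf and Anln, which fell, also hold the CHR, as does Plk1, which rose, while Ccnb1, which rose, holds no TTTGAA. Other forms of the CHR were not searched. Whether the CHR or the E2F element goes with the direction of change was not tested.
Cdc20: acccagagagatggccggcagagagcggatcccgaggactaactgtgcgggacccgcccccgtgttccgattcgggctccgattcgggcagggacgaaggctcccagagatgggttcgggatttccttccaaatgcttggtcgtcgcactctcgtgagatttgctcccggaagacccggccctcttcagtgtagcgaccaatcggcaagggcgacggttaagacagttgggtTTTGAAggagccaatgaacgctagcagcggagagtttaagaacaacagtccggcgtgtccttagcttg
Mki67: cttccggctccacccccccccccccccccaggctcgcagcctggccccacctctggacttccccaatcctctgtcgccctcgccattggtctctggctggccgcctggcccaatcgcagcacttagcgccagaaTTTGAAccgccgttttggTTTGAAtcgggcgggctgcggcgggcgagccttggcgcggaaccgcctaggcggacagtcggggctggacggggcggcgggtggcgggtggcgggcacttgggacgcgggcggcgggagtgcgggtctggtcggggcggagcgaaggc

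All 20 ribosome biogenesis genes were called higher in the spleen (29.3% of all genes), and the median log2 was 1.86. None overlapped between compartments, where 23.9% of all genes lay higher in the spleen without overlap. Npm1 had 3696, 3085, 3876 and 3197 CPM against 681, 821 and 910.3 CPM as femoral low, median and high (log2 2.10 ± 0.14, edgeR adjusted p = 2.14e-07). Wdr43 and Gnl3, nucleolar proteins of early ribosome assembly, rose by 1.92 ± 0.11 and 1.94 ± 0.11, and the polymerase I subunits Polr1a, Polr1b and Polr1e by 1.43 to 2.01. Odc1, the first enzyme of polyamine synthesis, rose least (1.15 ± 0.28).

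All 20 genes of cholesterol and fatty acid synthesis were likewise called higher, 11 of them at least 4-fold (4.55% of all genes), with a median log2 of 2.30. Scd1, which puts the double bond into saturated fatty acids, had 668, 1089.7, 672 and 759.6 CPM in the spleen and 6.62, 11.6 and 13.7 CPM as femoral low, median and high (log2 6.25 ± 0.28, edgeR adjusted p = 9.78e-09). The related Scd2 rose by 2.76 ± 0.17. Along the sterol pathway, Hmgcs1, Idi1, Fdft1, Sqle, Lss, Cyp51 and Msmo1 rose by 2.45 to 3.55. Their regulators moved less: Srebf2 by 1.63 ± 0.17 and Srebf1 by 0.93 ± 0.12. Every one of these genes separated the compartments in all libraries, as did 23.9% of all genes in this direction.

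Serine, one-carbon and amino acid genes gave 17 of 18 called higher, beside 29.3% of all genes. The folate enzyme Shmt1 had 174, 134, 175 and 201 CPM against 22.1, 24.7 and 28.9 CPM (log2 2.76 ± 0.13, edgeR adjusted p = 1.36e-08), and the serine synthesis enzymes Phgdh, Psat1 and Psph rose by 2.03 to 2.39. The cystine transporter Slc7a11 was the member that fell (2.20, 4.80, 2.44 and 0.646 CPM against 12.8 to 49.0 CPM, log2 -3.56 ± 0.54). Cth, which makes cysteine inside the cell, was among the strongest rises above.

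In glycolysis 13 of 16 were called higher and 2 lower (29.3% and 38.7% of all genes), with a median log2 of 1.83. Ldha, which turns pyruvate into lactate, had 1860.5, 1588, 1588 and 2091 CPM against 198, 284 and 316 CPM (log2 2.70 ± 0.16, edgeR adjusted p = 8.57e-08). The glucose transporter Slc2a1 rose by 2.25 ± 0.16 and Hk2 by 0.58 ± 0.20, while the transporter Slc2a3 and the hexokinase Hk1 fell by 1.41 and 0.89. The pairs thus differed by isoform. Citrate cycle genes were raised less, with 13 of 16 called higher, none lower, a median of 0.77 and Suclg1 and Idh3a leading (1.35 ± 0.16 and 1.10 ± 0.12). Ogdh and Dlst, 2 parts of the 2-oxoglutarate dehydrogenase complex, were not called (adjusted p = 0.747 and 0.713).

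**Figure D3:**
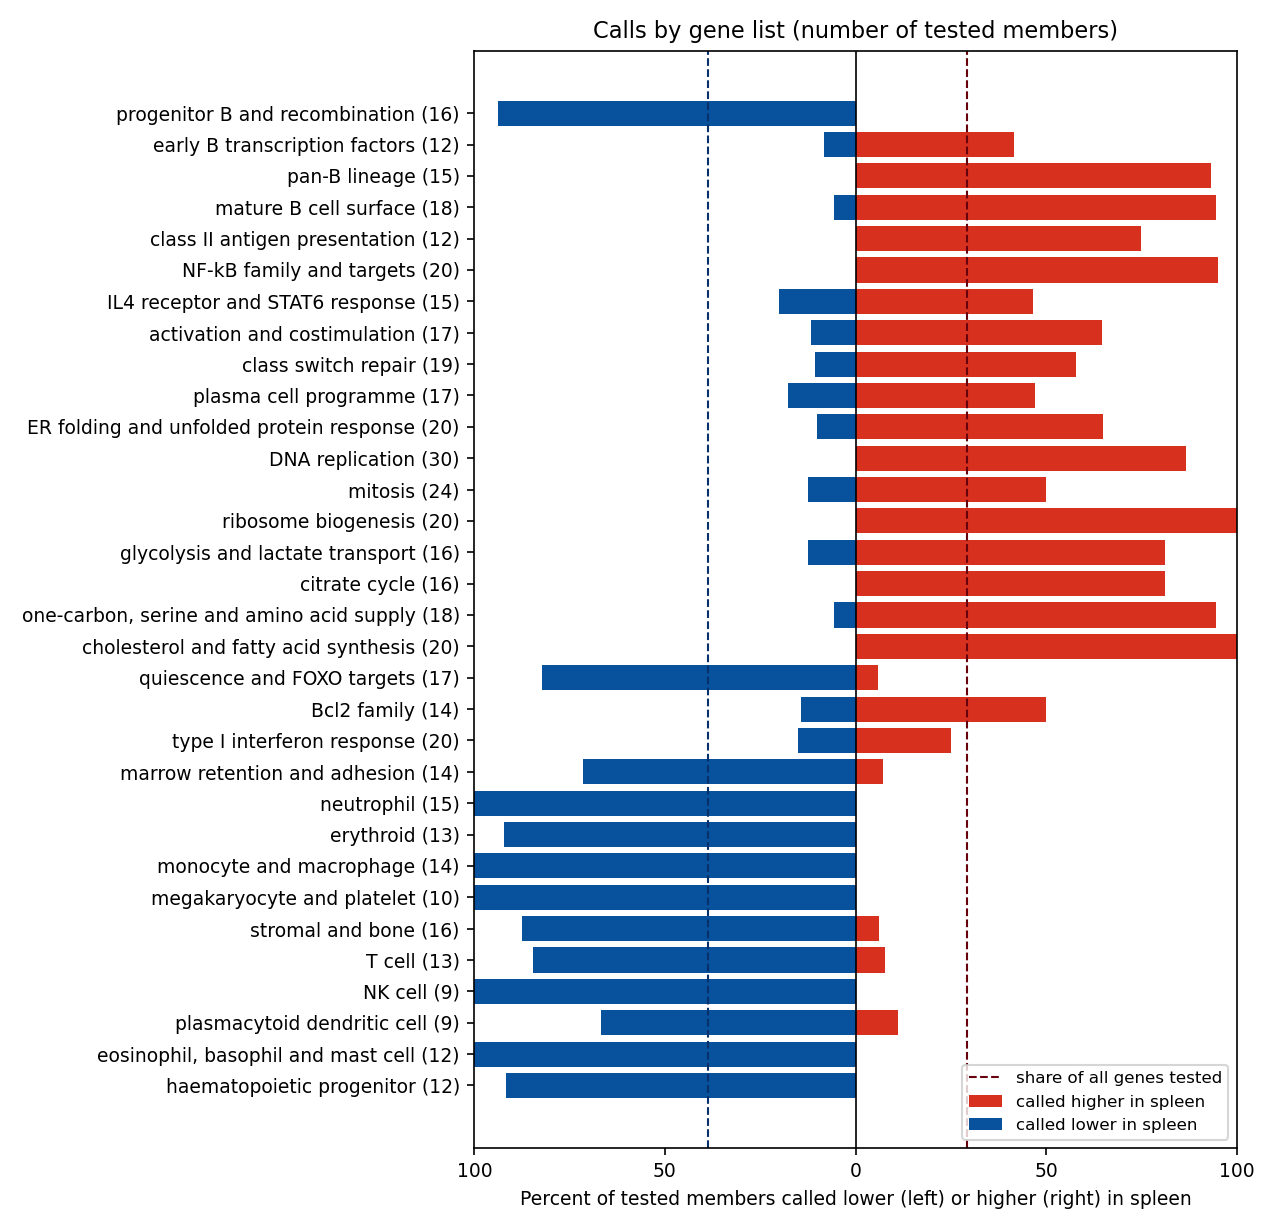
Percent of tested members called lower (left, blue) or higher (right, red) in the spleen for each gene list on the y axis, with the number of tested members in brackets and dashed lines at the shares of all genes, 38.7% and 29.3%. Ribosome biogenesis and cholesterol synthesis reach 100% higher, and the neutrophil, monocyte and natural killer lists reach 100% lower.

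Genes of resting cells were lower in the spleen (median log2 -1.23). From the quiescence list 17 were tested, and 14 were called lower and 1 higher, beside 38.7% and 29.3% of all genes. Klf2, a factor of resting lymphocytes, had 17.6, 17.4, 17.0 and 18.2 CPM in the spleen against 26.6, 59.2 and 309 CPM as femoral low, median and high (log2 -2.88 ± 0.76, edgeR adjusted p = 0.00517). The femoral spread followed the groups, with means of 300.4 CPM in deltaEmu, 59.2 in 2KO and 29.6 in RAG2_deficient. The antiproliferative genes Btg1 and Btg2 fell by 0.97 and 2.31, and the cell cycle inhibitors Cdkn1b and Cdkn2c by 0.84 and 1.30. Klf4 fell by 6.50, and monocytes and neutrophils also express it. S1pr1, the receptor by which lymphocytes leave tissues and a target of Klf2, was higher (38.5, 25.0, 41.3 and 41.1 against 6.32 to 18.8 CPM, log2 1.64 ± 0.30), opposite to Klf2.

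Retention and adhesion genes gave 10 of 14 called lower and 1 higher, beside 38.7% and 29.3% of all genes (median log2 -1.84). Cxcr4, the receptor that keeps B cell progenitors near marrow stroma, had 25.0, 19.6, 20.3 and 18.7 CPM in the spleen and 228, 296 and 379 CPM as femoral low, median and high (log2 -3.88 ± 0.20, edgeR adjusted p = 2.29e-08). The integrin chain Itga5 fell by 6.27 and Itga4 by 2.52. Cxcl12 and Vcam1, the stromal partners of Cxcr4 and Itga4, had at most 0.0461 and 0.128 CPM in the spleen and at least 70.2 and 66.9 CPM in the femoral libraries. S1pr1 was the member called higher, and without LPS_IL4 4_et_7 or the deltaEmu library numbered 5 the count was 2, without the 2KO library numbered 3 it was 3. Itgb1, which pairs with both integrin chains, was not called (203 ± 10.1 against 229 ± 26.2 CPM, adjusted p = 0.203).

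Of 14 tested Bcl2 family genes, 7 were called higher and 2 lower, beside 29.3% and 38.7% of all genes. No member was called lower without LPS_IL4 6_et_8 or the deltaEmu library numbered 5, and 1 was without LPS_IL4 4_et_7, the 2KO library numbered 1 or the second RAG2_deficient library. Bcl2a1d, a survival gene induced by NF-kB, had 210.3, 93.1, 215 and 244 CPM in the spleen and 0.703 to 3.29 CPM in the femoral libraries (log2 6.54 ± 0.45, edgeR adjusted p = 2.22e-07). Its near copy Bcl2a1b rose by 5.44 ± 0.39, and reads may be split among the copies. Bcl2 rose by 0.96 ± 0.15 together with the killers Bax, Bid and Bbc3 (0.78 to 1.61). Mcl1, on which B cells depend for survival, had 475 ± 46.1 and 465 ± 154 CPM (adjusted p = 0.909).

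Type I interferon genes showed no common direction, with 5 of 20 called higher, 3 lower and a median log2 of -0.06. Ifit1 had 59.6, 64.6, 66.4 and 63.7 CPM in the spleen against 3.28 to 19.4 CPM (log2 2.75 ± 0.39, edgeR adjusted p = 6.53e-05), and Isg15 rose by 2.11 ± 0.30. Ifi44 fell by 4.92 and Rsad2 by 1.92. Both counts lie below what the shares of all genes, 29.3% and 38.7%, would give in 20 genes.

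**Figure D4:**
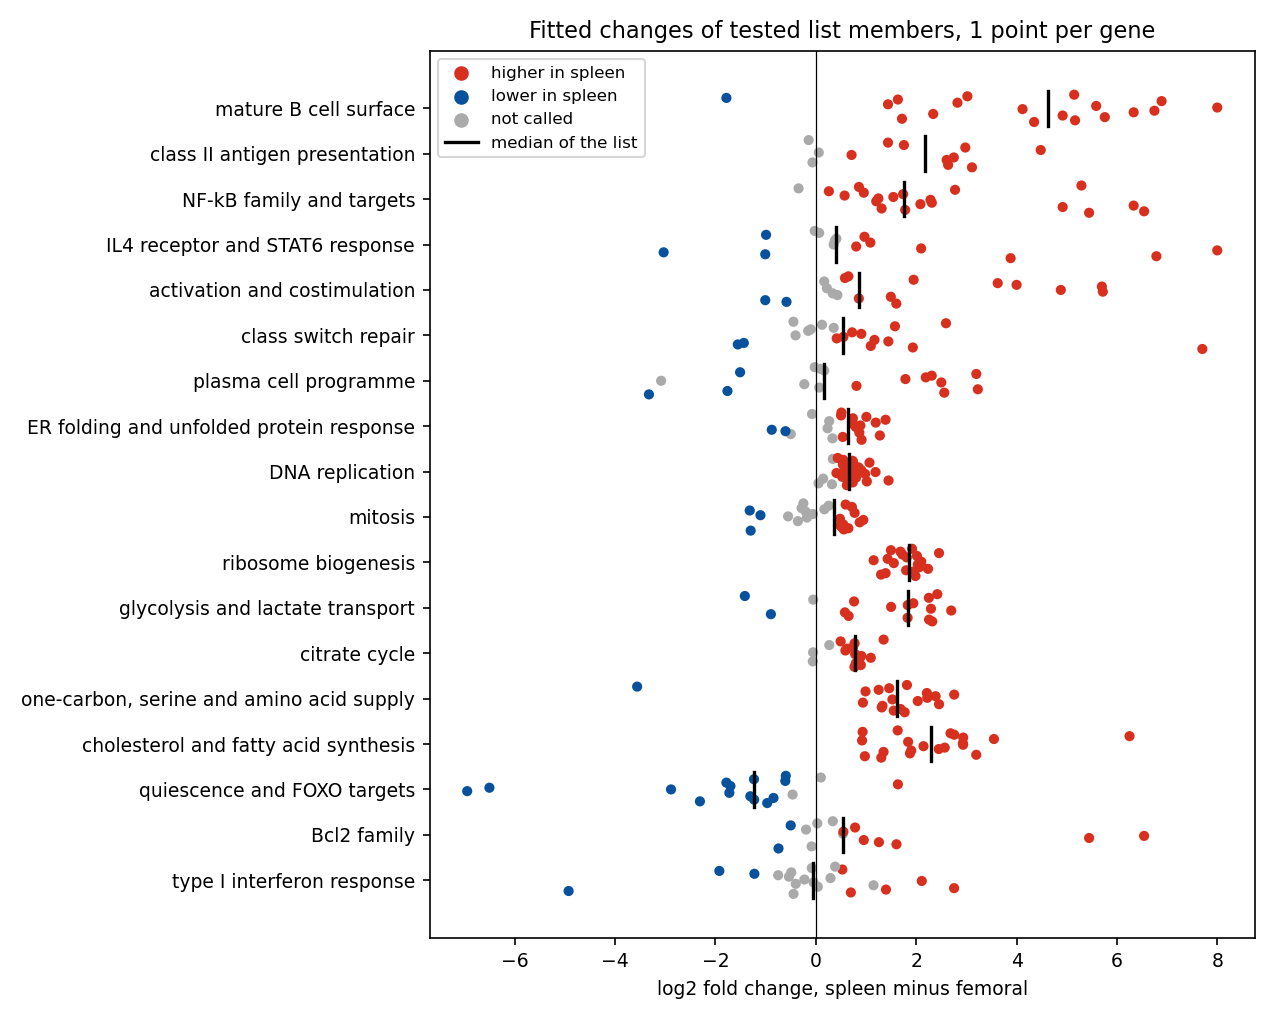
Fitted log2 fold change (x axis, spleen minus femoral) of each tested member of 18 lists (y axis), 1 point per gene, red where called higher, blue where called lower and grey where not called, with a black line at the list's median. The medians run from -1.23 for quiescence genes to 4.63 for mature B cell surface genes, and single members that oppose their list (Slc7a11, S1pr1) stand out.

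Immunoglobulin transcripts need the genotypes side by side, because the femoral mice carry changes in the IgH locus or in V(D)J recombination. Counts were summed by class of segment, since reads of near-identical V segments cannot be assigned to single genes with certainty. Ighm, the constant gene of IgM (chr12:113418558-113422730 on mm10), had 3993, 3643, 3347 and 3504 CPM in the spleen libraries. Its femoral mean was 5.27 CPM in 2KO, 529 in deltaEmu and 522 in RAG2_deficient, so spleen lay above all groups (log2 3.36 ± 1.05, edgeR adjusted p = 0.0137). Ighd, the constant gene of IgD that marks mature naive cells, had 168, 150.3, 192 and 170.1 CPM in the spleen and none in 2KO, 5.06 CPM in deltaEmu and 13.7 CPM in RAG2_deficient.

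Over all 183 V segment entries of IgH, the spleen libraries had 1059, 704, 737 and 824 CPM. The femoral libraries had 19.9 and 13.6 CPM in 2KO, 309 and 431 in deltaEmu and 41.9 and 28.7 in RAG2_deficient (log2 2.56 ± 0.90, edgeR p adjusted over 9 sums = 0.0470). This call ended, with the direction kept, when any 1 spleen library (0.0559 to 0.0876) or either RAG2_deficient library (0.0913 and 0.0665) was left out. It also ended when the spleen libraries were summed into their 2 pools (0.126). D segments went the other way only in RAG2_deficient, which had 30.7 and 25.9 CPM where the spleen had 2.73 to 4.46 CPM and the other femoral libraries at most 0.708 CPM. J segments followed D, with 46.5 and 80.2 CPM in RAG2_deficient, 13.9 to 29.2 CPM in the spleen and at most 2.71 CPM in the other groups. The D and J sums were therefore not called over all femoral libraries (adjusted p = 0.405 and 0.909), and against 2KO alone both were higher in the spleen (log2 6.89 and 7.60).

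Light chain transcripts were highest in the spleen and, among femoral groups, in deltaEmu. The kappa constant gene Igkc had 1165, 810.4, 996 and 1024 CPM in the spleen, 629.9 and 680.1 CPM in deltaEmu and 3.66 to 5.52 CPM in the 2KO and RAG2_deficient libraries, so that no femoral library reached the spleen but the sum was not called (log2 2.17 ± 1.41, edgeR p adjusted over 9 sums = 0.225). Kappa J was called (27.3 to 39.4 against 1.24 to 10.6 CPM, log2 3.13 ± 0.55, adjusted p = 0.00123). The lambda sum was called as well, with 978, 521, 916 and 900 CPM in the spleen, 193 and 182 CPM in deltaEmu and 4.53 to 8.04 CPM in the others (log2 3.63 ± 1.10, adjusted p = 0.0311). It lost its call without LPS_IL4 4_et_7 (0.0599), LPS_IL4_SAHA 4_et_7 (0.0601), LPS_IL4_SAHA 6_et_8 (0.0578) or the first RAG2_deficient library (0.0523), and with the spleen libraries summed into 2 pools (0.0913).

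Constant genes other than those of IgM and IgD did not share a direction. Ighg3 was called higher in the spleen (12.7 to 17.7 CPM against 0 to 4.86 CPM, log2 3.51 ± 1.18, edgeR adjusted p = 0.0203). Ighg2b had 26.5 to 30.1 CPM in the spleen and 0.275 to 23.4 CPM in the femoral libraries, highest in deltaEmu, and was not called (adjusted p = 0.127). Ighg1 had 9.59, 5.83, 14.2 and 12.7 CPM in the spleen, 0 in 2KO and RAG2_deficient and a mean of 35.9 CPM in deltaEmu. Igha had 1.99 to 3.58 CPM in the spleen and a mean of 721 CPM in deltaEmu. Neither Ighg1 nor Igha was called over all femoral libraries (edgeR adjusted p = 0.929 and 0.0523), although Igha passed when a 2KO or RAG2_deficient library was left out (0.0348 to 0.0381), by DESeq2's Wald test (0.0161) and without the filter on low counts (0.0413). In fits against deltaEmu alone both were lower in the spleen, by log2 -1.66 and -7.79, and Jchain by -4.58. The deltaEmu libraries had the highest femoral levels of V, kappa, Igha and Jchain transcripts and of Ms4a1, Fcer2a and Cr2.

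**Figure D5:**
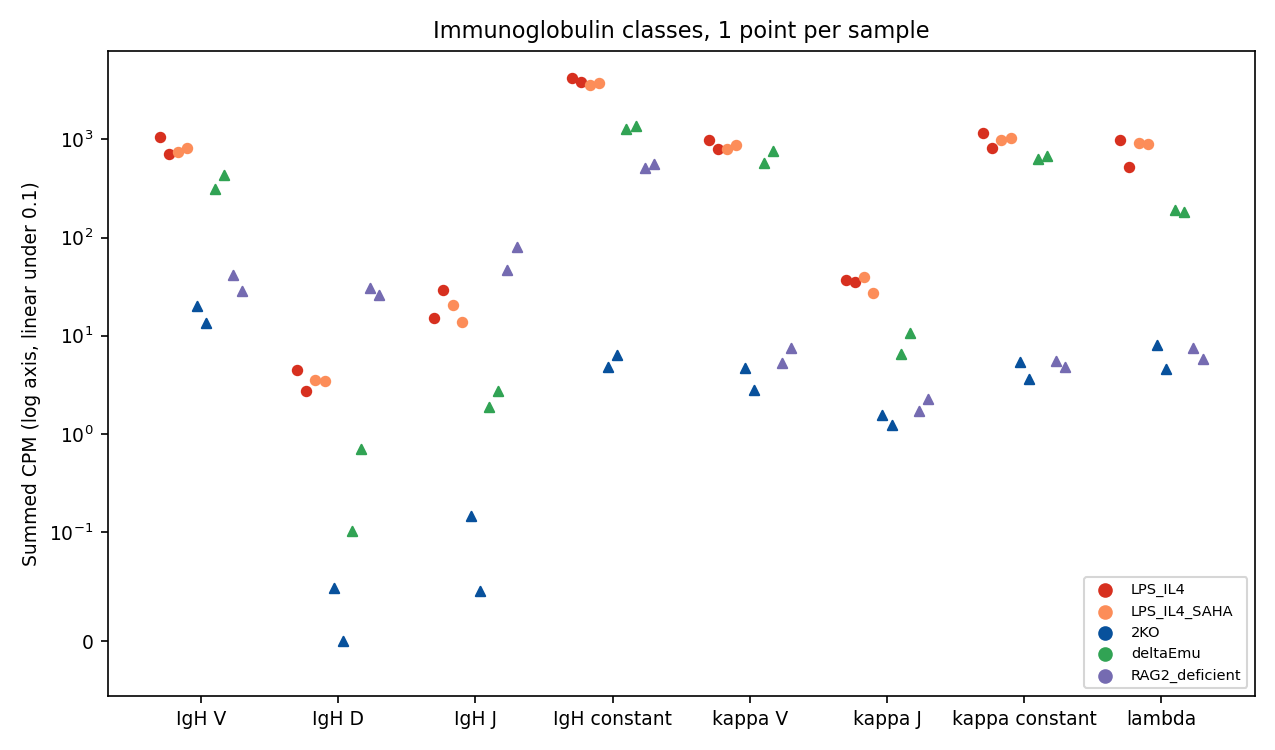
Summed CPM (y axis, logarithmic above 0.1) of 8 immunoglobulin classes (x axis), 1 point per library, circles for spleen and triangles for femoral. The spleen points are highest for V, constant, kappa and lambda sums, 2KO lies near 0 for D and J, and RAG2_deficient lies above the spleen for D and J (30.7 and 46.5 CPM in its first library).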

How the data were processed

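Libraries of RNA from 10 mouse samples were sequenced. The authors deposited raw counts in a single table, with 46959 gene entries, 100 entries for control sequences and a gene length in bases. The submitters' processing notes name STAR 2.4.0a, featureCounts of Subread 1.4.6-p1 and the build mm10/GRCm38. Strand setting, annotation release and treatment of multiply mapped reads: not given in the sources used here. Values of antisense or overlapping genes, gene families and pseudogenes are therefore uncertain.

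Control sequences and the 4184 entries of the X and Y chromosomes were left out. The deposited counts were tested with edgeR 4.0.16 in R 4.3.3, using filterByExpr (minimum count 10), TMM factors and a quasi-likelihood F test with 1 term for the compartment (8 residual degrees of freedom). The Benjamini-Hochberg method adjusted p over the 15729 genes tested, and a gene was called at an adjusted p of 0.05. The 5 groups were also fitted as separate means. CPM use TMM-scaled library sizes and are given as mean ± SD, log2 fold changes as ± SE. Immunoglobulin counts were added up into 9 sums and tested in the same fit. Folds against no count use a floor of 3 counts per library, and ratios of 1 to 3 counts carry 95% exact intervals. Both cover counting error only. Depth was 17710154 to 25544275 counts per library.

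Nothing in the labels says that libraries are separate animals, so p-values measure the spread between these libraries. The 4 spleen libraries come from 2 pools, each with and without SAHA, but were fitted as 4 separate units. Differences among the femoral genotypes and with SAHA count as spread within a compartment. The comparison, the gene lists and the rule for named genes were chosen with earlier results of these data known. The rule took the 12 largest changes in each direction with at least 20 CPM, the 10 largest differences in CPM, the 2 members of each list with the smallest adjusted p and up to 4 more, and 28 fixed genes. Promoter windows come from RefSeq (GRCm38.p6), for 24 of 30 replication, 20 of 24 mitosis and 17 of 20 ER genes. Steps were tested on simulated counts. Alternatives were other scalings and filters, DESeq2 1.42.0, other groupings and the loss of each library. A few genes are not reported here, although they count in the lists.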

Additional observations from a re-analysis of the deposited data

Results flagged for a closer look

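Of 220 values examined (list sums, immunoglobulin sums, named genes and shares of counts, by compartment), 16 had 1 library far from the rest of its compartment, judged by the gap to its neighbour as a part of the whole range (limit 0.829 for 4 spleen libraries and 0.625 for 6 femoral ones). For normally distributed values chance alone gives about 1 in 20 of such groups, which does not hold for values with a single count. The library LPS_IL4 6_et_8 accounted for 9 of the 16. These 9 are not independent, since Pax5 is part of the early B sum and Gm26917 of the ribosomal RNA share. Among them, Ear1 and Igll1 rest on single counts.

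In LPS_IL4 6_et_8 the sum of early B transcription factors was 2952 CPM (next 2152 CPM, gap 0.8793 of the range), Pax5 was 722 CPM (next 339.8 CPM, 0.8814) and the sum of interferon genes was 1092 CPM (next 919 CPM, 0.8335). Its plasmacytoid dendritic cell sum, which in the spleen holds much Ly6d, was the lowest at 576 CPM (0.872), as was its lambda sum at 521 CPM (0.8296). Its ribosomal RNA share was 5.05% (0.8548), and Gm26917 reached 44861 CPM (0.9123). Without this library, 72.7% of tested genes were called.

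Single counts gave a further 5, with a gap of 1: Ear1 and Igll1 in LPS_IL4 6_et_8, Slc4a1 and Rag1 in LPS_IL4_SAHA 4_et_7, and Col1a2 in LPS_IL4 4_et_7. Ighe was highest in LPS_IL4_SAHA 4_et_7 at 0.299 CPM (0.8568). The progenitor B sum was highest in LPS_IL4_SAHA 6_et_8 at 166 CPM (0.8619), against 157 to 158 CPM in the others, a small difference. In the femoral libraries Fcer2a stood out in deltaEmu 7 at 4.19 CPM (0.6371) and Rpsa in RAG2_deficient 2 at 1302 CPM (0.668).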

How the results depend on the processing

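No paired analysis was possible because the pool numbers 4_et_7 and 6_et_8 recur only within the spleen, and no number joins a spleen with a femoral library. The called share was 53.9% to 72.7% over the alternatives that kept a count filter and 47.4% without one. None of 112 called named genes reversed in any of them. Many of these were chosen from these data for large changes or small adjusted p, so this says little about other genes. Ighg1, Igha and Jchain, which were not called, did reverse, as given below. Counts at 4-fold were 1347 higher and 5127 lower without a filter, 1948 lower at 50 counts or more and 1213 higher against RAG2_deficient alone. Of all calls, 43.1% were higher in the spleen, and 38.1% to 48.6% in the alternatives. The median log2 of all genes shifted by -0.13 with library size alone, -0.21 without a filter and 0.15 at 50 counts or more. Eef1a1 lost its call with LPS_IL4 alone (adjusted p = 0.0655) or against deltaEmu alone (0.0914), and Malat1 in the fit against RAG2_deficient alone (0.0590), though not in the fit with 5 group means (0.0262). All IgH was called without either 2KO or either deltaEmu library (0.0356 to 0.0398), and IgH constant without either 2KO library (0.0379 and 0.0434).

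Immunoglobulin values, here as log2 fold changes, moved with the choices. IgH V was 2.46 with library size alone, and lost its call there and with LPS_IL4 alone (2.66), LPS_IL4_SAHA alone (2.61) or spleen pools summed (2.67). Lambda did so in the last 3 (3.50, 3.90, 3.76). The sum of all IgH was called with DESeq2's size factors (2.60) and without a filter (2.66), and IgH constant without a filter (2.72). With 5 group means, which average the groups on the log scale, D and J reversed (2.35 and 3.00), as did Ighg1 (6.52), Igha (1.47) and Jchain (3.16), and IgH constant (4.60), kappa V (5.09), kappa constant (5.33) and all IgH (4.0) were called. Against 2KO alone, D (6.89), J (7.60), Ighg1 (10.84), Igha (5.83) and Jchain (8.53) reversed, and IgH constant (9.40), kappa V (7.83), kappa constant (7.76) and all IgH (7.70) were called. Against deltaEmu alone D (3.24) and J (3.18) reversed, and IgH constant (1.63), kappa constant (0.70) and all IgH (1.56) were called. Against RAG2_deficient alone D (-2.95), J (-1.63), IgH constant (2.89), kappa V (7.12), kappa constant (7.65) and all IgH (2.87) were called, and Ighg1 (10.79), Igha (6.56) and Jchain (5.80) reversed. The femoral group levels above differ by genotype. Leaving out 1 library at a time gave 2.37 to 3.32 for IgH V, 3.39 to 4.40 for lambda, 2.45 to 3.04 for IgH constant and 2.39 to 2.98 for all IgH. The CHR share of the mitosis list was 30.0% before the start alone.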

Other observations

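Ptprc (CD45), which white blood cells carry, had 667 ± 146 CPM in the spleen (SD, n = 4) and 733 ± 145 CPM in the femoral libraries (n = 6), and was not called by edgeR's quasi-likelihood test (adjusted p = 0.549). Genes with at least 10 counts numbered 12935 to 13940 per spleen library and 14939 to 15478 per femoral library. The small RNAs Rn7sk, Rpph1 and Rmrp together took 2.83% to 7.81% of the spleen and 6.67% to 15.9% of the femoral counts.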
